A study of Mus musculus with 24 samples.

Results

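A set of 7 genes of platelets and of megakaryocytes, the bone marrow cells that shed them, was followed through 4 tissues of WT and Rap1 KI/KI mice: Gp9, Gp1ba, Gp5, Itga2b, Clec1b, Pf4 and Ppbp. These are 7 of the 21368 genes that could be named on the array, and are read by 9 of its 55681 probes, 1 for each gene except Clec1b, which has 3. The set was chosen by the muscle values of Gp9, which lay apart in the 2 genotypes, so the muscle genotype difference is described below and carries no test, for these genes and for all others set beside them. The genotype differences in the liver, brain and heart and the differences between these 3 tissues were tested.

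Platelets are cell fragments without a nucleus that keep a store of megakaryocyte mRNA, and an RNA extract of a whole organ holds the platelets of the blood left in its vessels. GP1BA and GP9 form, with GP1BB and GP5, the receptor for von Willebrand factor by which platelets catch on a damaged vessel wall, and ITGA2B pairs with integrin beta-3 as the receptor for fibrinogen. CLEC1B, also called CLEC-2, is a lectin-like receptor whose ligand is podoplanin, and PF4 and PPBP are chemokines stored in platelet alpha granules. In bulk tissue, fewer cells of a type and less RNA in each cell cannot be told apart.

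The study asked what happens in mice when RAP1, a telomere protein, can no longer bind its partner TRF2. Its Rap1 KI/KI mice carry the I312R substitution, made by CRISPR/Cas9 editing and homozygous in every cell, and the line was crossed back over 4 generations to C57BL6 mice, named as C57BL/6N in the methods. The arrays used here come from 3 WT and 3 Rap1 KI/KI males, and each of the 6 mice gave liver, brain, heart and skeletal muscle, for 24 arrays in all. Age was 5 months for WT1 and KI1, and 2 months for WT2, WT3, KI2 and KI3. No animal received a treatment.

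Each value below is a level: the log2 of the deposited spot intensity after subtraction of the log2 of that array's 75th percentile, so that 0 is the 75th percentile, and a difference of 1 is a change of 2-fold. The 75th percentile itself lay between 470.7 and 1389 intensity units, lowest in the muscle (470.7 to 529.2), and 56.5% to 72.7% of probes were well above background. Muscle-specific, heart-specific, hepatocyte and neuron genes were highest in the labelled tissues, with 8 skeletal muscle genes averaging 7.74 to 8.05 in the muscles and 7 hepatocyte genes 8.27 to 9.13 in the livers. Liver arrays were all on slide 1 and muscle arrays all on slide 3, brain arrays were on slides 1 and 2, and heart arrays were on slides 2 and 3. RNA of heart and muscle was isolated with a kit for fibrous tissue and that of liver and brain with another, so the kit cannot be told apart from tissue in the heart comparisons. A probe was tested with limma where its spot was well above background on 3 or more of the 6 arrays in a tissue (for comparisons of tissues, in any 1 of those compared), with Benjamini-Hochberg adjustment over all tested probes. The 6 mice were separate animals, and their number limits the precision.

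On the RefSeq annotation of GRCm38.p6, Pf4 (NM_019932, chr5:90772435-90773383) and Ppbp (NM_023785, chr5:90768518-90770063) are neighbours on chromosome 5. Gp9 (NM_018762) lies at chr6:87776131-87779786, Clec1b (NM_019985) at chr6:129397297-129405413, Gp1ba (NM_010326) at chr11:70639102-70643986, Itga2b (NM_010575) at chr11:102453297-102469883 and Gp5 (NM_008148) at chr16:30307685-30310781. Clec1b overlaps the annotated span of Clec12b, and the other 6 overlap no annotated gene. Which exon each probe reads was not used here. All 7 genes matched an entry of the RefSeq promoter table, and the 250 bases before the transcription start of that entry are printed here for 5 of them. Each is in the direction of transcription, and capitals mark matches on either strand to a GATA factor motif, spelled AGATAA with its first-base variant TGATAA, or AGATAG with its first-base variant TGATAG, and to an ETS factor motif, spelled CGGAAG with its first-base variant AGGAAG. The windows are chr11:70638872-70639121 on the plus strand for Gp1ba, chr16:30310782-30311031 on the minus strand for Gp5, chr6:129397047-129397296 on the plus strand for Clec1b, chr5:90772185-90772434 on the plus strand for Pf4 and chr5:90768268-90768517 on the plus strand for Ppbp.
Gp1ba: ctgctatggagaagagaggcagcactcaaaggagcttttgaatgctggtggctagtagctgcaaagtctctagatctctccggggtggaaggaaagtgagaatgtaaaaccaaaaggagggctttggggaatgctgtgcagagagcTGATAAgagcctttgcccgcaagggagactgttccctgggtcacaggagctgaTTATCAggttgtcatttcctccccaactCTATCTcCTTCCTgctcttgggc
Gp5: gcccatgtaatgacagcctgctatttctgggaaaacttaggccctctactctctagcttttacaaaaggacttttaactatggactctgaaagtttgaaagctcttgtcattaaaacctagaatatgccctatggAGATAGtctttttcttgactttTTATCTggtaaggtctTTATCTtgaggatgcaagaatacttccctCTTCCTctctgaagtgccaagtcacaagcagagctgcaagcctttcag
Clec1b: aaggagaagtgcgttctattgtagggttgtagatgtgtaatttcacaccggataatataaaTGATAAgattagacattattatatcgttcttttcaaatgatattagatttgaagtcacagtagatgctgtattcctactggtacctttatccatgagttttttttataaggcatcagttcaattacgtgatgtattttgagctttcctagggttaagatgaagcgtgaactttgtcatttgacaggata
Pf4: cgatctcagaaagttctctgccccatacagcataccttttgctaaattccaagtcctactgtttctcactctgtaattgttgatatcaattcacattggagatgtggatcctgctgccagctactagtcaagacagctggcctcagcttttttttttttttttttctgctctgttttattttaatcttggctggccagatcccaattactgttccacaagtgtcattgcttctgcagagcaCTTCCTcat
Ppbp: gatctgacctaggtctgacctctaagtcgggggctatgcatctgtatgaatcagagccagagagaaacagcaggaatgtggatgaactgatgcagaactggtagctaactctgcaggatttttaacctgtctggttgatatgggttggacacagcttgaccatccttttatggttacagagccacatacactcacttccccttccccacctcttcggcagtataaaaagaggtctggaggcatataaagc

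Gp1ba and Gp5, whose proteins sit in the same receptor complex, each held 3 GATA matches and 1 ETS match, and in both the ETS match was AGGAAG on the opposite strand, 16 bases before the start in Gp1ba and 48 in Gp5. Clec1b held 1 GATA match and no ETS match, Pf4 held 1 ETS match 9 bases before the start, and Ppbp held neither. Gp9 and Itga2b, not printed, held 1 and 2 ETS matches and no GATA match. The Gp9 window lies inside the annotated span of the gene, since RefSeq also lists a start further upstream. The end of the Gp1ba window, at chr11:70639121, also lies past the annotated gene start at chr11:70639102, so that its ETS match falls inside the annotated span. GATA spellings were thus in 3 of 7 windows and ETS spellings in 5 of 7, against 26.5% and 39.2% of the 32851 promoter windows of the same length in the table, and both kinds were in 2 of 7 against 9.21%. The single spellings were in 9.99% (AGATAA), 7.94% (TGATAA), 7.71% (AGATAG), 6.35% (TGATAG), 13.6% (CGGAAG) and 29.5% (AGGAAG) of windows. The matches are a description of these windows and do not show that a factor binds there.

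Among liver, brain and heart, the mean level was highest in the heart for 6 of the 7 genes, though for Gp5 the heart and brain did not differ beyond their spread, and it was highest in the liver for Clec1b. Between heart and liver all 7 genes differed at an adjusted p below 0.05 by limma, 6 of them lower in the liver, where 33.7% of all 38713 probes tested were lower, and 1, Clec1b, higher in the liver, where 37.3% were higher. Between heart and brain 6 of 7 were lower in the brain, against 39.9% of 39860 probes, and 0 were higher, against 29.2%. Between liver and brain 3 of 7 (Gp1ba, Ppbp and Clec1b) were higher in the liver, against 46.1% of 41238 probes, and 1 (Gp5) was lower, against 33.8%. The median difference over all probes was 0.07 for liver minus heart, -0.22 for brain minus heart and 0.35 for liver minus brain. The heart also led for other blood and vessel cell lists. Lower in the liver than in the heart were 11 of 14 red cell, 12 of 12 endothelial, 9 of 16 neutrophil and 5 of 16 macrophage genes, with 1, 0, 3 and 3 higher. Lower in the brain than in the heart were 12 of 14, 11 of 12, 10 of 17 and 10 of 16, with 0, 0, 2 and 0 higher.

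**Figure D1:**
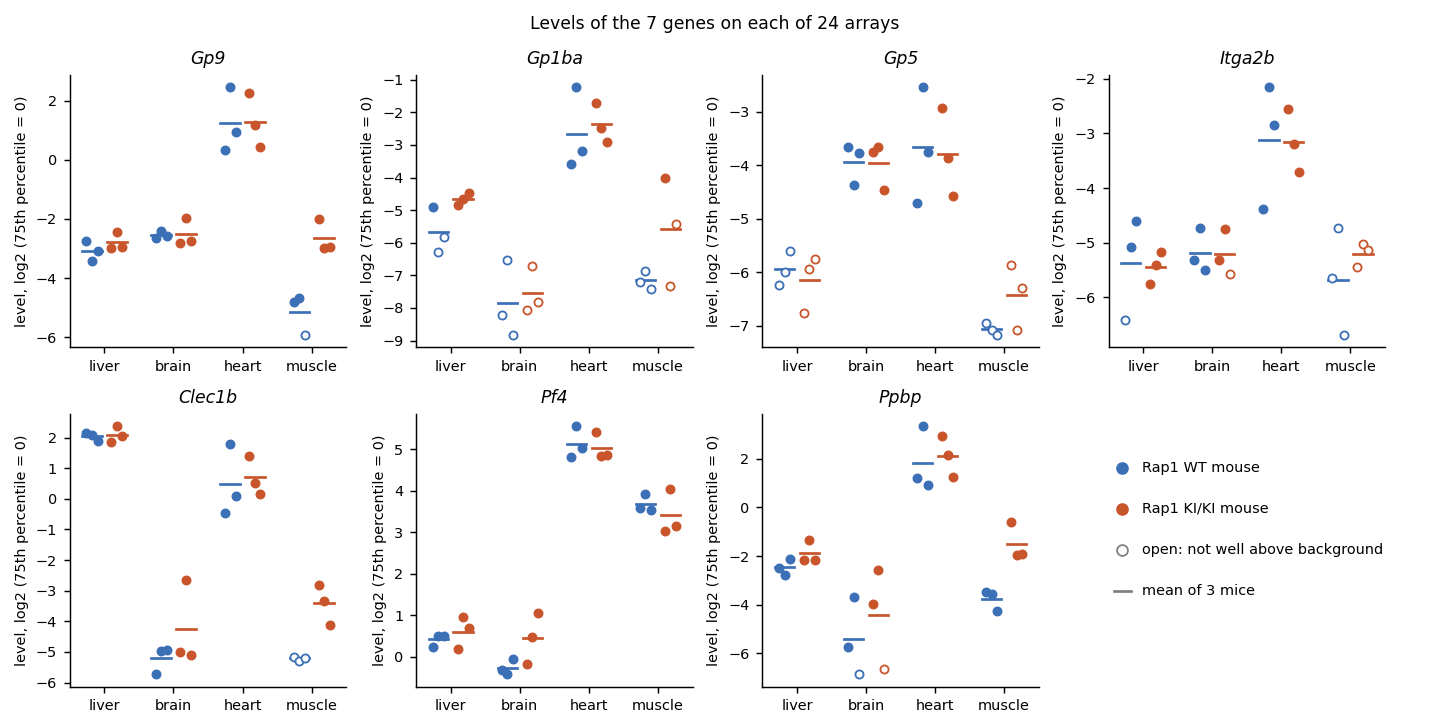
Level of each gene on each of the 24 arrays (y axis, log2 minus the 75th percentile; x axis, tissue), with WT mice in blue, Rap1 KI/KI mice in red, open circles for spots not well above background and bars for the mean of 3 mice. In the heart the 6 mice span 4.33-fold for Gp9, and in the muscle the 3 Rap1 KI/KI mice lie above the 3 WT mice for Gp9, Ppbp and the Clec1b probe shown. That probe was well above background in 0 of the 3 WT muscles, and another Clec1b probe differed there by -0.05.

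Gp9, the small subunit of the von Willebrand receptor, was well above background on 23 of 24 arrays. Its heart levels were 0.35, 2.47 and 0.95 in WT1 to WT3 and 2.25, 1.18 and 0.43 in KI1 to KI3. In the 6 livers it ranged from -3.41 to -2.44 (median -2.97) and in the 6 brains from -2.81 to -1.96 (median -2.61), so that neither range reached that of the hearts. The heart level was 18.5-fold that of the liver (difference 4.21 in log2, SE 0.35, limma adjusted p = 2.72e-08) and 13.9-fold that of the brain (3.79, SE 0.35, adjusted p = 9.39e-08), while liver and brain, which overlapped, did not differ beyond their spread (-0.42, SE 0.35, adjusted p = 0.272).

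Gp1ba carries the von Willebrand factor binding site of the complex. Its heart levels were -3.57, -1.22 and -3.17 in WT1 to WT3 and -1.70, -2.49 and -2.92 in KI1 to KI3. The spot was well above background on 4 of 6 liver arrays and on 0 of 6 brain arrays. The hearts exceeded the livers 6.28-fold (adjusted p = 9.27e-05) and the brains at least 13.6-fold (adjusted p = 6.24e-08), and the livers exceeded the brains at least 2.16-fold (adjusted p = 0.000108). These lower bounds set each brain at the lowest signal well above background on its array, or at its own level where that was higher. They hold only for the deposited background subtraction. With another background correction (normexp) liver minus brain was 0.79 and brain minus heart -2.16.

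Gp5, a further subunit of the complex, had another order. Its heart levels were -4.70, -2.54 and -3.76 in the WT mice and -2.94, -3.86 and -4.57 in the Rap1 KI/KI mice, and its brain levels, -4.47 to -3.66 (median -3.76), lay within that range. Heart and brain did not differ beyond their spread (difference 0.22, SE 0.35, adjusted p = 0.598). In the liver 0 of 6 arrays were well above background, and the heart was at least 4.43-fold and the brain at least 3.81-fold higher (adjusted p = 2.81e-05 and 5.62e-05). These bounds too hold only for the deposited background subtraction. Liver minus brain was -0.45 with normexp, and liver minus heart was -0.82 in the alternative where it was smallest.

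Itga2b, the alpha subunit of the fibrinogen receptor, was well above background on 16 of 24 arrays. Its heart levels were -4.39, -2.15 and -2.84 in WT1 to WT3 and -2.55, -3.19 and -3.71 in KI1 to KI3. The hearts were 4.80-fold above the livers (adjusted p = 6.69e-05) and 4.16-fold above the brains (adjusted p = 0.000164), without overlap. Livers (-6.41 to -4.61, median -5.29) and brains (-5.57 to -4.73, median -5.32) overlapped and did not differ beyond their spread (adjusted p = 0.623). Its partner Itgb3, integrin beta-3, averaged 1.62 ± 0.73 (SD, n = 6) in the heart, 0.64 ± 0.36 in the liver and -0.62 ± 0.21 in the brain.

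Clec1b was the exception to the heart order. Its levels were close together in the livers, 2.16, 2.09 and 1.88 in the WT mice and 1.85, 2.37 and 2.04 in the Rap1 KI/KI mice. Its heart levels were -0.47, 1.80 and 0.08 in the WT mice and 1.41, 0.53 and 0.17 in the Rap1 KI/KI mice, all below every liver. The livers exceeded the hearts 2.78-fold (difference 1.48, SE 0.44, adjusted p = 0.00706) and the brains 111-fold (6.79, SE 0.44, adjusted p = 8.69e-10), and the hearts exceeded the brains 39.8-fold (adjusted p = 2.78e-08). The other 2 Clec1b probes gave the same order, with liver over heart differences of 1.27 and 1.52, although there the ranges of liver and heart met. All 11 genes of the list for Kupffer cells, the macrophages of the liver sinusoid, and for sinusoid endothelium were also higher in the liver than in the heart and the brain (median differences 5.89 and 8.61). Whether such cells contribute to the Clec1b level was not tested.

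The alpha granule chemokines were also highest in the heart among the 3 tissues tested. Pf4, well above background on all 24 arrays, had heart levels of 4.81, 5.55 and 5.02 in WT1 to WT3 and 5.41, 4.83 and 4.86 in KI1 to KI3, a spread of 1.67-fold where the other 6 genes spread 4.33-fold to 5.40-fold. Its liver levels were 0.18 to 0.96 (median 0.51) and its brain levels -0.42 to 1.05 (median -0.12). The hearts exceeded the livers 23.6-fold (difference 4.56, SE 0.22, adjusted p = 3.51e-11) and the brains 31.7-fold (4.98, SE 0.22, adjusted p = 1.57e-11). Livers and brains overlapped (0.42, SE 0.22, adjusted p = 0.0853), with a lead of the liver that passed the threshold in the WT mice alone (0.69, adjusted p = 0.0423), without KI3 (0.55, adjusted p = 0.0433) and with the slide as a block (0.76, adjusted p = 0.0324).

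Ppbp, its neighbour on chromosome 5, had heart levels of 1.22, 3.34 and 0.91 in the WT mice and 2.94, 2.15 and 1.27 in the Rap1 KI/KI mice. Its brain levels spread 19.5-fold, from -6.87 to -2.59 (median -4.86), and 4 of the 6 brains were well above background. The hearts exceeded the livers 17.8-fold (adjusted p = 4.67e-05) and the brains 119-fold (adjusted p = 1.84e-07), and the livers exceeded the brains 6.68-fold (adjusted p = 0.00147) with overlapping ranges. Muscle was left out of these tests: Pf4 averaged 3.54 ± 0.40 (SD, n = 6) there, between the heart and the liver, whereas Ppbp averaged -3.77 in the WT muscles and -1.50 in the Rap1 KI/KI muscles.

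**Figure D2:**
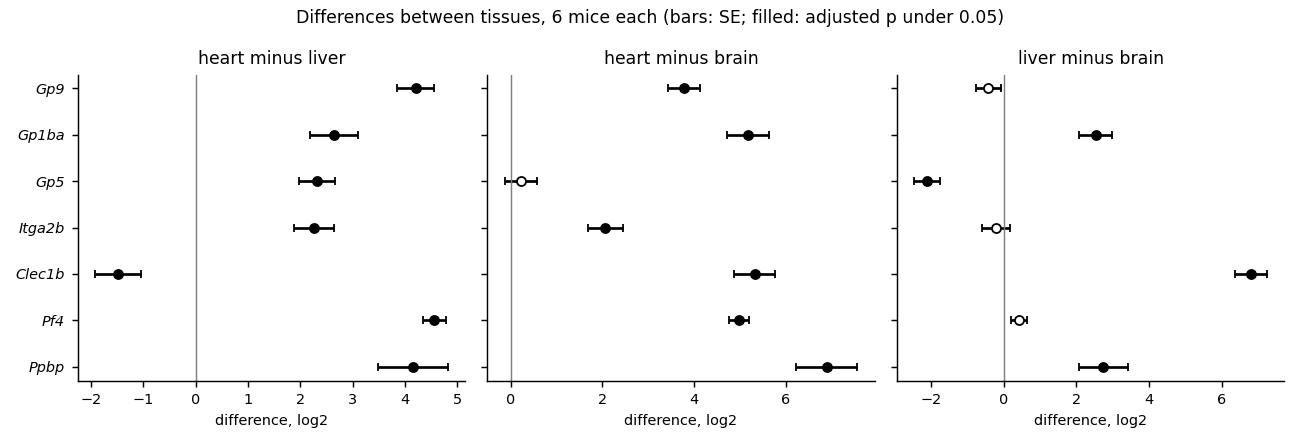
Difference in level between tissues for each gene (x axis, log2; points, mean over 6 mice in each tissue; bars, SE from the limma fit; filled, adjusted p below 0.05). Heart minus liver is positive for 6 genes and -1.48 for Clec1b, and Gp5 is the gene whose heart and brain levels did not differ beyond their spread.

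Every one of the tissue differences called here was also called, in the same direction, in all alternatives in which the gene was tested, with each mouse left out and with the slide as a block among them. Livers and hearts shared no slide, so the slide block compares them only through the brains. Within slide 2, which held 4 brains and 4 hearts, brain minus heart ran from -7.36 for Ppbp to -0.56 for Gp5, and within slide 1, with 6 livers and 2 brains, liver minus brain was 7.43 for Clec1b and -0.21 for Gp9. With normexp background correction the differences of the dimmer genes shrank, to 2.16 for Gp1ba and 1.12 for Itga2b between heart and brain and to 0.45 for Gp5 between brain and liver.

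In the liver, brain and heart no difference between the genotypes in the 7 genes passed the test. The count at an adjusted p below 0.05 was 0 of 6 tested members in the liver, 0 of 6 in the brain and 0 of 7 in the heart, against 0% of 35241, 0% of 37836 and 0% of 34848 probes. At an unadjusted p below 0.05 it was 1 of 6, 0 of 6 and 0 of 7, against 2.13%, 2.62% and 7.51% of all probes. The differences lay between -0.12 and 0.30 in the heart, with SE of 0.29 to 0.71, and the adjusted p were 1 in liver and brain and 0.905 to 0.992 in the heart.

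The liver member below an unadjusted p of 0.05 was Gp1ba. Its levels there were -4.91, -6.28 and -5.81 in WT1 to WT3 and -4.84, -4.66 and -4.46 in KI1 to KI3. All 3 Rap1 KI/KI livers were above all 3 WT livers, an arrangement found in 2.77% of probes (the opposite in 3.07%), but 2 of the 3 WT spots were not well above background. The difference was 1.01 (SE 0.36, limma adjusted p = 1), and it was 0.06 with normexp background correction. In the liver Gp9 differed by 0.30 (SE 0.26), Ppbp by 0.58 (SE 0.30), Pf4 by 0.19 (SE 0.25), Clec1b by 0.05 (SE 0.22) and Itga2b by -0.08 (SE 0.46). Without KI2, the highest liver for Gp9, Ppbp and Pf4, these 3 differences were 0.12, 0.32 and 0.02.

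In the brain the largest differences came with the largest spread. Ppbp had levels of -5.75, -3.67 and -6.87 in the WT brains and -3.98, -2.59 and -6.66 in the Rap1 KI/KI brains, a difference of 1.02 (SE 1.23). Clec1b differed by 0.96 (SE 0.69), with KI2 at -2.64 and the other 5 brains between -5.73 and -4.92. KI2 was also the highest brain for Gp9 and Ppbp, and without it the Clec1b difference was 0.16, that of Ppbp 0.11 and that of Gp9 -0.23. Without KI3 or WT2 the Ppbp difference was 2.15 or 1.90, and without WT3 it was 0.30, while Clec1b was highest without KI3, at 1.38. Pf4 differed by 0.72 (SE 0.33), with levels of -0.31, -0.42 and -0.06 in the WT mice and -0.18, 0.49 and 1.05 in the Rap1 KI/KI mice.

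KI3, the brain with the highest Pf4, was also the one in which 15 tested macrophage genes averaged 1.67 above the mean of the WT brains, where the other Rap1 KI/KI brains were at -0.06 and 0.22. Its part in the Pf4 value was not tested. Without KI3 the Pf4 difference in the brain was 0.42. No member separated the genotypes in the brain, where 4.01% of probes had all Rap1 KI/KI above all WT mice and 3.74% the opposite, or in the heart, where the shares were 6.03% and 8.69%.

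**Figure D3:**
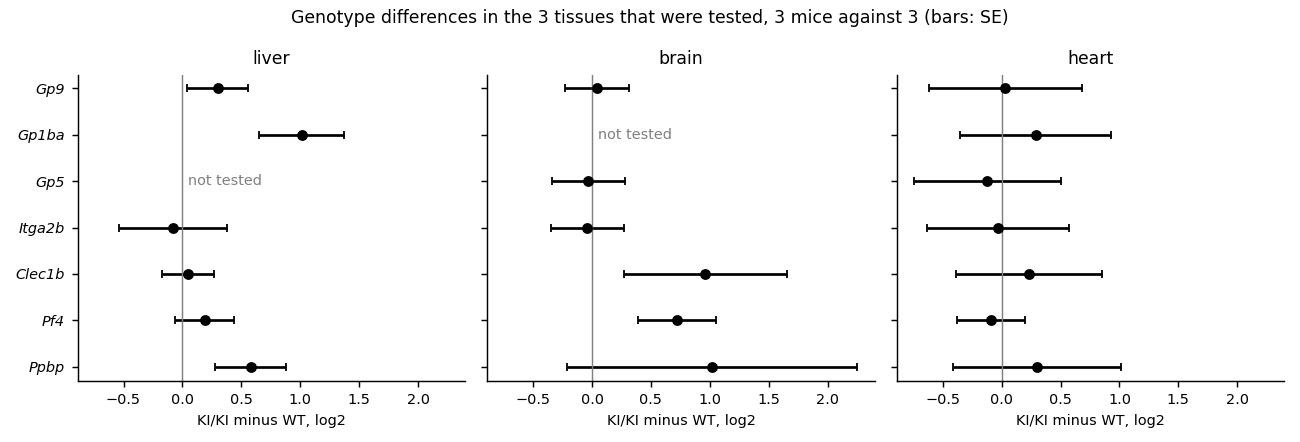
Rap1 KI/KI minus WT difference in level for each gene in liver, brain and heart (x axis, log2; points, difference between the means of 3 mice; bars, SE from limma). The brain difference of Ppbp, 1.02, has an SE of 1.23, and all heart differences lie between -0.12 and 0.30.

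Whether the genotype difference varied between liver, brain and heart was tested as an interaction in limma, in which 0 of the 7 members and 0% of 42153 probes passed an adjusted p of 0.05, and 0 members and 3.6% of probes an unadjusted p of 0.05. Without KI2 the count over all probes was 9. Within slides the genotype differences of the 7 genes ran from -0.05 to 1.07 between the 2 and 2 brains of slide 2 and from -0.06 to 0.40 between the 2 and 2 hearts of slide 2. The 1 and 1 brains of slide 1, which were the older mice, gave -0.17 to 1.77, and the 1 and 1 hearts of slide 3 gave -0.88 to 0.36.

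Single hearts stood apart from each other. WT2 had the highest and KI1 the second highest level of all 7 genes, and WT1 had the lowest level of all but Ppbp, whose lowest heart was WT3. Over the 34823 probes tested in the heart with a value on every array, this first and second place fell to WT2 and KI1 in 1.22%, and the pair held the first 2 places in either order in 2.43%. Among 74 other platelet and megakaryocyte genes it was 15 (20.3%) and 23 (31.1%), among 16 macrophage genes 4 (25%) and 10 (62.5%), and among 14 B and T cell genes 1 (7.14%) and 5 (35.7%). Among 16 neutrophil genes it was 0 and 1, and among the 12 endothelial, 14 red cell, 8 fat and 8 heart muscle genes it was 0 in each list. The order was noticed in the data, and the genes share the 6 hearts.

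The 15 other genes with WT2 first and KI1 second included Gp1bb, which completes the von Willebrand receptor, Gp6, the collagen receptor, Treml1 and Mpig6b, receptors of the platelet surface, Tubb1, the beta-tubulin of the platelet ring, Alox12, the platelet lipoxygenase, and the megakaryocyte transcription factors Gata1 and Nfe2. Treml1 had heart levels of 0.01, 2.32 and 0.73 in the WT mice and 1.84, 1.12 and 0.50 in the Rap1 KI/KI mice. Gata1, a factor of both red cell and megakaryocyte lineages, had -3.67, -1.82 and -2.96 in the WT hearts and -2.16, -2.46 and -2.30 in the Rap1 KI/KI hearts. WT2 and KI1 were of different age and genotype. Their arrays lay on slide 2 with those of KI2 and WT1, the latter the lowest heart for 6 of the 7 members.

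They were also the 2 hearts with the highest 75th percentile of raw intensity, 988.1 and 1107 against 569.4 to 852.5 in the other 4, although every level here is already relative to it. The macrophage list averaged 0.14 and 0.23 above the mean of the WT hearts in these mice and -0.22 to -0.06 in the others. The neutrophil list averaged 1.46 above the WT mean in WT2 but -0.14 in KI1, and red cell genes -0.09 and 0.51. The part of intensity, macrophages and lymphocytes in the order of the hearts was not tested.

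**Figure D4:**
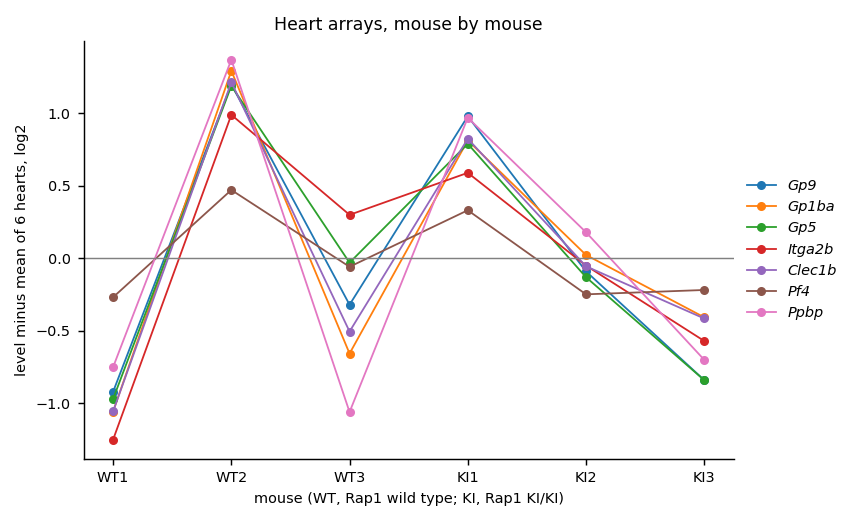
Level of each gene in each heart minus the mean of the 6 hearts (y axis, log2; x axis, mouse; lines join the values of 1 gene). All 7 genes are highest in WT2 and second in KI1, and Pf4 has the narrowest span, 1.67-fold.

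In the muscle, the values that selected the set, the 3 Rap1 KI/KI mice lay above the 3 WT mice for Gp9, Ppbp and the brightest Clec1b probe, 3 of the 4 members tested there, and for 0 of 4 below. All probes had 2.36% above and 4.09% below. Nothing is read from these shares, since Gp9 chose the set and the Clec1b probe passed the filter only through the Rap1 KI/KI muscles. Gp9 had -4.81, -4.68 and -5.93 in WT1 to WT3 and -2.01, -2.97 and -2.96 in KI1 to KI3, a difference of 2.49 or 5.62-fold (WT3 was not well above background). Ppbp had -3.49, -3.58 and -4.26 in the WT mice and -0.61, -1.97 and -1.93 in the Rap1 KI/KI mice, a difference of 2.27 or 4.83-fold. The brightest of the 3 Clec1b probes was not well above background in the WT muscles (-5.15, -5.28 and -5.20), and was at -2.80, -3.34 and -4.11 in the Rap1 KI/KI muscles, at least 3.22-fold higher by this probe.

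These muscle values depended on the spot and on the background. A second Clec1b probe, well above background in 1 of 3 WT muscles, differed by 1.45, but the remaining one, well above background in all 6, had -3.18, -3.30 and -3.69 in the WT mice and -3.36, -3.11 and -3.85 in the Rap1 KI/KI mice, a difference of -0.05, and the mean of the 3 probes gave 1.07. With normexp background correction the differences were 0.83 for Gp9, 1.21 for Ppbp and 0.51 for Clec1b. Leaving out each mouse moved the Gp9 difference between 2.09 and 2.72, and without KI1, the highest muscle for Gp9, Ppbp and Clec1b, it was 2.17.

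Pf4 did not follow. Its muscle levels were 3.58, 3.93 and 3.53 in the WT mice and 3.03, 4.04 and 3.15 in the Rap1 KI/KI mice, a difference of -0.27 with overlapping groups, and KI1, the highest muscle for the other 3, was the lowest for Pf4. Gp1ba was well above background on 1 muscle array of 6, that of KI1 (-4.02), and Gp5 and Itga2b on 0 of 6.

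**Figure D5:**
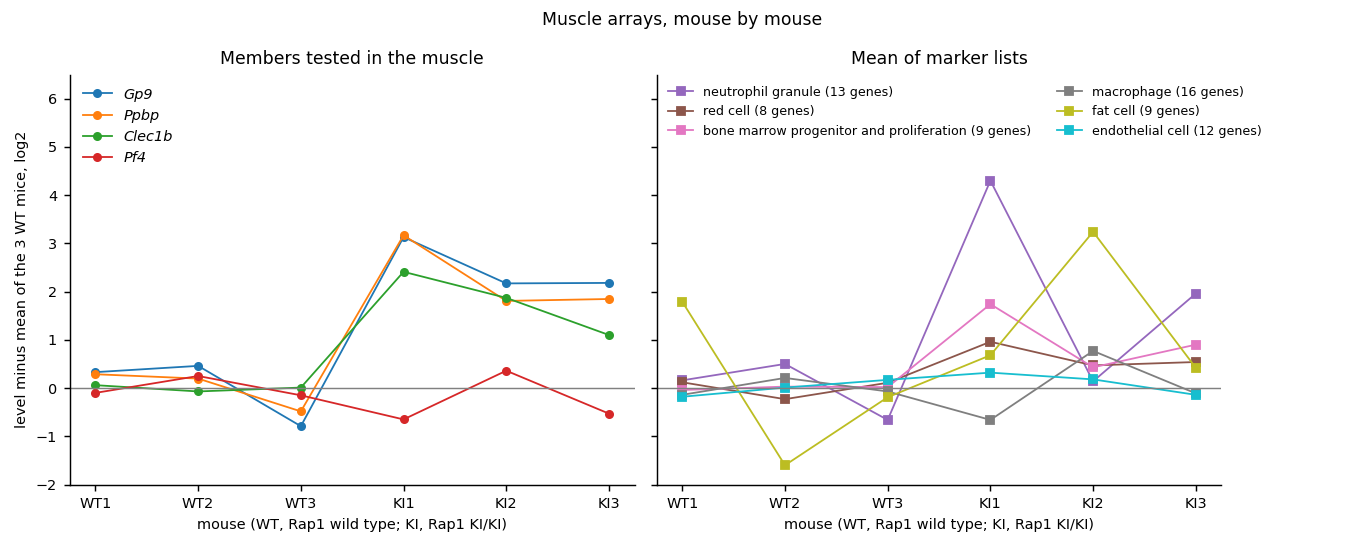
Muscle levels of the 4 genes tested there (left) and means of marker lists (right), each minus the mean of the 3 WT mice (y axis, log2; x axis, mouse). KI1 is the highest muscle for Gp9, Ppbp and the brightest Clec1b probe, the 1 shown, and for the neutrophil list (4.30). The red cell list is above the WT mice in all 3 Rap1 KI/KI mice (0.47 to 0.96).

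Some lists for other blood and marrow cells were also higher in the Rap1 KI/KI muscles, the neutrophil list not in every mouse. The 10 tested B and T cell genes did not share this. They averaged 0.28, 0.12 and -0.45 relative to the WT mean in KI1 to KI3, where the WT muscles ran from -0.09 to 0.17. The 13 tested of 18 neutrophil granule genes averaged 4.30, 0.14 and 1.96 above the WT mean in KI1, KI2 and KI3. All Rap1 KI/KI muscles were above all WT muscles for 3 of the 13 (Chil3, S100a8 and S100a9), against 2.36% of all probes. S100a9 was at 1.03 to 5.92 in the Rap1 KI/KI muscles and -0.87 to 0.91 in the WT muscles. The 8 tested of 16 red cell genes averaged 0.96, 0.47 and 0.54 above the WT mean, all 8 with a positive difference. For 5 of them (Slc4a1, Alas2, Hba-a1, Hba-a2 and Hbb-bt) all Rap1 KI/KI were above all WT mice, against 2.36% of all probes. The 9 tested genes of marrow progenitors and proliferation averaged 1.74, 0.43 and 0.90 above it. Their list shares Mpo, Elane, Prtn3, Ctsg, Ms4a3 and Fcnb with the neutrophil list. The red cell and marrow means were above those of all 3 WT muscles in each Rap1 KI/KI muscle, and the neutrophil mean in KI1 and KI3, where the WT muscles ran from -0.66 to 0.50. Gata1 was well above background in 0 of 3 WT muscles and in 2 of 3 Rap1 KI/KI muscles, too few for it to be tested there. The 10 tested megakaryocyte transcription factors averaged 0.37, 0.10 and -0.08 relative to the WT mean in KI1 to KI3, with 5 of the 10 higher and 5 lower. The part of blood or marrow cells in the Gp9, Ppbp and Clec1b values was not tested.

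Other lists also differed between the muscles. Fat genes (9) were highest in KI2, at 3.24 above the WT mean, against -1.60 to 1.79 in the WT mice, and neuron genes (5 tested of 10) were at 0.88, 0.57 and 2.60 in KI1 to KI3, against -0.13 to 0.10 in the WT mice. The 12 endothelial genes stayed between -0.18 and 0.32 and the mean of the 8 skeletal muscle genes between -0.24 and 0.07 in all 6 mice. Even so, 3 of the 8 (Ckm, Actn3 and Tnnt3) were lower in all 3 Rap1 KI/KI than in all 3 WT muscles, against 4.09% of all probes. Their differences were -0.35, -0.31 and -0.10. The 16 macrophage genes, which include genes also active in monocytes, were at -0.66, 0.77 and -0.11 in KI1 to KI3. In WT1 to WT3 they were at -0.14, 0.21 and -0.07. From high to low, Pf4 ran KI2, KI3 and KI1 in the Rap1 KI/KI muscles and WT2, WT1 and WT3 in the WT muscles. The part of macrophages in the muscle Pf4 values was not tested.

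Across the 24 arrays, with the mean of each tissue removed, the gene most like Gp9 among 18556 others was Treml1, the receptor of platelet alpha granules (Pearson r = 0.94), followed by Clec1b (0.81), Fpr2 (0.76), Nfe2 (0.75) and S100a9 (0.75). Fpr2, a formyl peptide receptor, and S100a9 are known from neutrophils. Over the 18 liver, brain and heart arrays, without the muscle that chose the set, Treml1 remained first (0.90), and the next 4 were Slc17a3, Acsm1, Car5a and Alox12 (0.84 to 0.81). Pf4 had other neighbours over the 24 arrays: Folr2 (0.89), Clec4a1 (0.87), Clec4a3 (0.87), Tbxas1 (0.86) and Apbb1ip (0.85), of which Folr2 is a folate receptor found on macrophages and Tbxas1 makes thromboxane. Without the muscle, the 5 nearest to Pf4 were Ctla2b (0.92), Ifi30, Folr2, Spi1 and Ms4a6c (0.87 each), with Folr2 the gene in both sets. These correlations share mice, arrays and the array scaling, and are given as a description.

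Among the members themselves, Gp9 correlated with Gp1ba at 0.75, Ppbp at 0.74, Gp5 at 0.67 and Itga2b at 0.53 in the same 24 arrays, but with Pf4 at 0.06. Pf4 was at -0.06 with Ppbp, its neighbour on the chromosome, at 0.25 with Clec1b and at 0.31 with Itga2b. The 24 arrays include the muscle values that chose the set. Over the 18 other arrays Gp9 was at 0.77 with Gp1ba, 0.77 with Clec1b, 0.75 with Gp5, 0.63 with Ppbp and 0.60 with Itga2b, and at 0.46 with Pf4, so that the low value for Gp9 and Pf4 rests on the muscle. Pf4 was then at 0.52 with Clec1b and 0.11 with Ppbp. Gp1ba, Gp5 and Itga2b were well above background on 11, 12 and 16 of the 24 arrays, and the part of dim spots in these correlations was not tested.

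The other 76 platelet and megakaryocyte genes were compared in the same way, grouped by role. At an adjusted p below 0.05 by limma, 0 of 68 tested differed between the genotypes in the liver, 0 of 68 in the brain and 0 of 74 in the heart. At an unadjusted p below 0.05 it was 3, 2 and 4, against 2.13%, 2.62% and 7.51% of all probes. The median differences were 0.12, 0.29 and 0.06 where all probes had -0.01, -0.05 and -0.02. All Rap1 KI/KI mice were above all WT mice for 3 of 68 in the liver, 14 of 68 in brain and 0 of 74 in heart, where all probes had 2.77%, 4.01% and 6.03%. They were below for 1, 2 and 6, where all probes had 3.07%, 3.74% and 8.69%. In the muscle, 8 of 67 were above and 2 below, where all probes had 2.36% and 4.09%, with a median of 0.05. Between tissues, 54 of 75 were lower in the liver than in the heart and 8 higher, where all probes had 33.7% and 37.3%. Between brain and heart, 53 of 74 were lower in the brain and 11 higher, where all probes had 39.9% and 29.2%, and between liver and brain 31 of 71 were higher in the liver and 26 lower, where all probes had 46.1% and 33.8%. The median differences were -1.65 for liver minus heart, -1.60 for brain minus heart and -0.02 for liver minus brain.

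By role, the heart led the liver for 11 of 13 tested adhesion receptors, 9 of 10 receptors of platelet agonists, 12 of 14 granule and secreted proteins, 12 of 22 signalling and cytoskeletal proteins, 2 of 4 enzymes of eicosanoid synthesis and 8 of 12 megakaryocyte transcription factors. Of the brightest adhesion receptors, the laminin receptor subunit Itga6 was at 4.98 ± 0.31 (SD, n = 6) in the heart and 0.18 ± 0.30 in the liver, and the tetraspanin Cd9 at 3.82 ± 0.47 and 2.56 ± 0.32. The ADP receptor P2ry1 was at 1.70 ± 0.47 and 0.48 ± 0.47, and the thromboxane receptor Tbxa2r at -0.83 ± 0.40 and -1.38 ± 0.20. Of the secreted proteins, the chaperone clusterin (Clu) was at 8.13 ± 0.21 and 8.52 ± 0.26 and the matrix protein Sparc at 8.30 ± 0.31 and 5.57 ± 0.24.

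Myosin light chain Myl9 was at 6.97 ± 0.86 in the heart and 2.15 ± 0.26 in the liver, and the G protein subunit Gng11 at 5.73 ± 0.29 and 3.14 ± 0.21. Of the enzymes, cyclooxygenase Ptgs1 was at 2.16 ± 0.56 and 2.20 ± 0.27 and Tbxas1 at -0.37 ± 0.37 and -0.30 ± 0.36. Of the transcription factors, Zfpm1, the partner of GATA1, was at 3.17 ± 0.33 and 4.89 ± 0.38. Several of these genes are also active in endothelium, muscle or connective tissue. Gata1, also a factor of the red cell lineage, was well above background in 6 of 6 hearts and in 0 of 6 livers and 0 of 6 brains. It is named here after its values were seen, and the cells it comes from were not tested.

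Of the 8 genes for ligands and regulators of the members, those tested numbered 8 in liver, 5 in brain and 6 in heart, of which 0 passed an adjusted p of 0.05 between the genotypes by limma. An unadjusted p of 0.05 was passed by 0, 0 and 1, against 2.13%, 2.62% and 7.51% of all probes. Vwf, the ligand of the GP1BA complex, was at 5.16 ± 0.46 in the heart, 2.26 ± 0.32 in the liver and 2.60 ± 0.67 in the brain (SD, n = 6), and Pdpn, the ligand of CLEC1B, at 2.12 ± 0.34, -1.61 ± 0.70 and 1.80 ± 0.80. Both were above the WT mice in all 3 Rap1 KI/KI brains, by 0.76 (SE 0.42) and 0.92 (SE 0.48, limma adjusted p = 1 for each), with KI3 highest at 3.81 and 3.39. Of all brain probes 4.01% had all Rap1 KI/KI above all WT mice. In the muscle Vwf differed by -0.16 and Pdpn by -0.13.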

How the data were processed

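Total RNA of 24 tissue samples was labelled with Cy3 and read on 1-colour Agilent mouse arrays, with 3671 control spots that were left out here. The deposited intensity per spot is the processed signal of Agilent Feature Extraction, in which the authors' scanner software had subtracted the background, and the background and spot medians deposited beside it served for an alternative. The authors also deposited a table of scores per gene and array, which behaved as z-scores and was used, rescaled to log2, as an alternative only.

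Levels were log2 intensities minus the 75th percentile of each array, and spots of 1 probe were averaged. Genes were named through the accession of the probe, and the probe with the highest mean level over the 24 arrays stood for a gene. Fits used R 4.3.3, limma 3.58.1 and statmod 1.5.0, and were tested on simulated data. Genotypes were compared in each tissue by 3 against 3 mice, and tissues in 1 fit over the 18 liver, brain and heart arrays. "At least" folds apply to a group with no spot well above background. Each of its arrays was set at the lowest signal that was, or at its own level where that was higher. The 6 mice gave all tissues, so tissue comparisons are paired by animal, and the mouse was used as a block in an alternative.

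The members and gene lists were chosen with earlier results of these data known. Text names all members, the 2 genes of a list with the highest mean level, any listed gene past an adjusted p of 0.05 between genotypes in liver, brain or heart, and the 5 genes most correlated with Gp9 and with Pf4. Genes named beyond that were chosen after their values were seen. An item that the rule would name is not reported here. Alternatives were quantile normalization, normexp (offset 50, run on median signals since no mean signal was used here), the table of scores, no filter or a filter on every array, age, slide or mouse as a block, 1 fit over 24 arrays, trended and robust moderation, the mean over probes, WT mice alone and each mouse left out. Normexp, the slide block for tissues and all correlations over 18 arrays were added after seeing the data. Promoter windows are those of RefSeq on GRCm38.p6.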

Additional observations from a re-analysis of the deposited data

How the results depend on the processing

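For genotype in liver, brain and heart, 0 of the member values passed an adjusted p of 0.05 under any alternative (lowest 0.417), with 279 of 313 in the direction reported. Values near 0 changed sign: Itga2b in the liver was 0.04 with the table of scores, in the brain Gp5 was 0.08 and Itga2b 0.10 with quantile normalization, and Pf4 in the heart was 0.12 with quantile normalization. Itga2b between liver and brain was 0 with quantile normalization and 0.10 with normexp. Leaving out each mouse gave, in the liver, -0.60 to 0.30 for Itga2b, -0.10 to 0.16 for Clec1b, 0.12 to 0.46 for Gp9, 0.32 to 0.75 for Ppbp, 0.02 to 0.40 for Pf4 and 0.71 to 1.39 for Gp1ba. In the brain it gave 0.11 to 2.15 for Ppbp, 0.16 to 1.38 for Clec1b, 0.42 to 1.03 for Pf4, -0.23 to 0.19 for Gp9, -0.25 to 0.23 for Gp5 and -0.27 to 0.19 for Itga2b. In the heart it gave -0.45 to 0.64 for Gp9, -0.17 to 1.00 for Gp1ba, -0.63 to 0.45 for Gp5, -0.66 to 0.46 for Itga2b, -0.24 to 0.90 for Clec1b, -0.28 to 0.12 for Pf4 and -0.16 to 1.06 for Ppbp. Between tissues it gave -0.47 to 0.02 for Itga2b (liver minus brain) and -0.54 to 0.17 for Gp5 (brain minus heart). The muscle difference of Gp9 was 0.83 with normexp. The count of probes called between liver and brain was 21105 when a probe had to be well above background on every array and 32970 otherwise, fewer probes being tested. Between liver and heart it was 18234 with the slide as a block and 27510 without. Livers and hearts shared no slide, so with that block they are compared only through the brains. The interaction count ranged from 0 to 9 over the mice left out.

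With the mouse as a replicate block, pairing the tissues of each animal, the genotype counts were 0 in liver, brain and heart and the tissue counts 33282, 27891 and 27943, and no member's call changed. Gp1ba, Gp5 and Itga2b were well above background on 11, 12 and 16 of 24 arrays, which limits their values, and 3 mice a genotype leave SE of up to 1.23.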
